A study of Arabidopsis thaliana with 8 samples.

Results

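The 4 loci described here, AT5G33355, AT3G59930, AT1G34047 and AT2G36255, each code for a small protein of the defensin-like (DEFL) family of Arabidopsis thaliana. AT5G33355, AT1G34047 and AT2G36255 were chosen by their measured rise in hy5 Control over WT Control. It was the largest among loci that passed the test, reached an average log2 CPM (counts scaled to library size) of 1 or more, and had no overlap between the 4 libraries. AT3G59930 was added because it is a near copy of AT5G33355. They are 4 of the 27628 loci in the transcript tables, and all 4 passed the filter on low counts, which left 22682 loci to test. Because the control-medium libraries chose the loci, values in control medium are given as a description, and the loci were tested with the libraries kept in benzyladenine (BA), a synthetic cytokinin.

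The groups were hy5 BA (hy5 mutant roots with 0.1 uM BA), hy5 Control (hy5 roots in the vehicle medium), WT BA (wild-type roots with 0.1 uM BA) and WT Control (wild-type roots in the vehicle medium), with 2 libraries in each. All plants had grown upright for 1 week on solid 0.5x MS medium before root and shoot were cut apart, so every library is of excised roots in liquid culture. The sources used here do not give the hy5 allele, the accession of the plants or the hours in liquid medium. Polyadenylated RNA was sequenced. Nothing in the labels says that paired libraries had separate cultures behind them, so the spread behind each p-value is that of these libraries and may be technical.

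Defensin-like proteins are small secreted peptides made with a signal peptide, and the mature part is held in a compact fold by disulfide bridges between conserved cysteines. Plants carry large families of them. The classical plant defensins act against fungi, some are switched on by jasmonate and ethylene in attacked tissue, and other cysteine-rich peptides of this kind act as signals between pollen and pistil. HY5, a transcription factor of the bZIP class, promotes responses to light, is also active in roots, and binds DNA elements with an ACGT core. No function of the 4 proteins is assumed here.

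The coding sequences show how close the loci are to each other. All sequences and positions are RefSeq's, from the build TAIR10.1, and the transcript lengths in the deposited tables equal those of these gene models. The near copies are shown first, with the single base in which they differ in capitals (T32C, AT5G33355's base first, counted from 1 at the A of the start codon). For AT1G34047 and AT2G36255 the capitals mark the codons of the 8 cysteines.
AT5G33355: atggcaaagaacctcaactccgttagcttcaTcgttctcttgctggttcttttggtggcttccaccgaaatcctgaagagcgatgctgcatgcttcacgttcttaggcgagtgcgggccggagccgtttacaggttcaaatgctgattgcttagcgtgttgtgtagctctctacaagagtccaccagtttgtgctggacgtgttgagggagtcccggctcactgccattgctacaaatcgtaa
AT3G59930: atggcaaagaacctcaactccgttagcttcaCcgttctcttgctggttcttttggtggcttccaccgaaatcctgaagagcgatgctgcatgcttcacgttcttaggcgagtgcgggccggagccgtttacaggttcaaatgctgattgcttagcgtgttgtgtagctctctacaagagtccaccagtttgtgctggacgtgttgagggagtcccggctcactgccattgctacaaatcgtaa
AT1G34047: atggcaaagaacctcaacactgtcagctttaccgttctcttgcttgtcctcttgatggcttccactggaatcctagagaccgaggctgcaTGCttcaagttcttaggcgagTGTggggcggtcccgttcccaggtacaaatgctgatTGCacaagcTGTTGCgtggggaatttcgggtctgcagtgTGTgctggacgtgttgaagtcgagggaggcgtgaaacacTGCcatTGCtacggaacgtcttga
AT2G36255: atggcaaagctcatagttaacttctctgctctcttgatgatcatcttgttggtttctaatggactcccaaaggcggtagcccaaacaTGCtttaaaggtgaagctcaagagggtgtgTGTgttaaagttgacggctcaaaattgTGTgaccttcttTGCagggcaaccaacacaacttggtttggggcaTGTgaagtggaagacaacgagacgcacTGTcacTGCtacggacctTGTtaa

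AT5G33355 lies at chr5:12599250-12599944 on the + strand, and its transcript of 585 bases codes for 80 residues. AT3G59930 lies on another chromosome, at chr3:22139492-22140320 on the - strand, with a transcript of 716 bases and also 80 residues. AT1G34047 is at chr1:12390238-12390915 on the - strand, where the transcript AT1G34047.1 has 581 bases and codes for 82 residues. AT2G36255 is at chr2:15201242-15201824 on the - strand, with 496 bases and 79 residues. Each of these transcripts has 2 exons, both of them coding, and each protein has 8 cysteines. The choice of AT5G33355, AT1G34047 and AT2G36255 did not use this feature. For AT3G59930 it follows from the choice of a near copy. A further annotated transcript of AT1G34047, AT1G34047.2, was listed at 0 in all 8 libraries.

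The proteins of AT5G33355 and AT3G59930 were identical at 79 of 80 positions, and T32C changes the residue that differs. AT1G34047 was the next of kin, with 67.5% identity to the AT5G33355 protein and 68.7% to the AT3G59930 protein, and all 8 of its cysteines aligned with theirs. AT2G36255 stood apart. Its protein shared 30.5 to 32.5% with the other 3, and 5 of its 8 cysteines aligned.

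How far reads can be told apart follows from this. Of the 555 words of 31 bases in the AT5G33355 transcript, 222 (40%) also occur in AT3G59930, where they make up 32.4% of 686 words. A read from such a stretch was divided between the near copies by the authors' estimate, so their separate levels are uncertain, while their sum does not depend on the division. AT1G34047 shares 12 of its 551 words (2.18%) with AT3G59930. Counting both strands, 38 of its words (6.90%) occur in some other locus, because AT1G34049 overlaps it on the opposite strand. None of the 466 words of AT2G36255 occurs in an annotated mRNA of another locus, so by this measure its reads are its own. Other kinds of transcript, such as those of pseudogenes and non-coding RNAs, were not searched.

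The libraries held between 29928501 and 35289411 estimated counts, and HY5 itself averaged 1.48 ± 0.70 CPM in hy5 BA and 0.88 ± 0.07 CPM in hy5 Control, against 31.2 ± 0.23 CPM in WT BA and 31.7 ± 0.96 CPM in WT Control (SD, n = 2 each). Estimated counts that missed a whole number by 0.001 or less made up 21.6% of transcripts in hy5 Control 1 and 23.5% in hy5 BA 2. They made up 1.34 to 1.53% in each of the 6 remaining libraries, so results are also given without both. The 6 shoot markers, genes of photosynthesis, summed to 40.9 and 44.6 CPM in hy5 BA and 13.2 and 32.7 CPM in hy5 Control, against 139 and 95.8 CPM in WT BA and 96.0 and 135 CPM in WT Control. As single genes they were mixed, with 1 called higher and 2 lower in hy5 in each medium. Their median log2 fold was 0.04 with BA and -0.88 in control medium. The 6 suberin markers summed to 202 to 222 CPM in the hy5 libraries and 250 to 313 CPM in the WT libraries. In each medium 1 of these was called higher in hy5 and 4 lower. The 6 xylem markers summed to 510 and 496 CPM in hy5 BA and 622 and 628 CPM in hy5 Control, against 394 and 430 CPM in WT BA and 503 and 404 CPM in WT Control. Of these, 2 were called higher in hy5 with BA and 4 in control medium, and 0 were called lower. The 4 root hair markers summed to 76.0 and 65.5 CPM in hy5 BA and 76.9 and 71.3 CPM in hy5 Control, against 82.6 and 100.2 CPM in WT BA and 79.1 and 74.4 CPM in WT Control. With BA, 3 of them were called lower in hy5 (median log2 fold -0.59). In control medium 2 were called lower and 1 higher (median -0.52). The 4 Casparian strip markers summed to 592 and 538 CPM in hy5 BA and 601 and 597 CPM in hy5 Control, against 488 and 597 CPM in WT BA and 536 and 477 CPM in WT Control. In control medium, 3 of them were called higher in hy5 (median 0.33), and with BA 1 was (median 0.08). Over all loci, 11.0% were called higher and 12.4% lower in hy5 with BA, and 13.7% and 11.4% in control medium. At most 1 marker of any list was at 0 in a library. Whether these shifts have a part in the results below was not tested. In whole roots, more cells with a transcript and more transcript per cell cannot be told apart.

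By the reads assigned to it, AT5G33355 was close to absent from wild-type roots and clearly present in every hy5 library. It had 26.2 and 30.2 CPM in hy5 BA and 47.6 and 49.4 CPM in hy5 Control, against 0.625 and 0.576 CPM in WT BA and 1.17 and 0.254 CPM in WT Control. In estimated counts these are 929 and 976 in hy5 BA and 1556 and 1591 in hy5 Control, against 18.7 and 17.8 in WT BA and 39.7 and 7.69 in WT Control. No hy5 library came near a WT library. With BA, the hy5 effect was 5.54 ± 0.30 on the log2 scale (SE; 46.6-fold; adjusted p = 3.17e-06 by edgeR's quasi-likelihood test). In control medium, which chose the locus, it was 6.05 ± 0.27.

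The near copy AT3G59930, also by its assigned reads, was well expressed in both genotypes and differed much less. It had 41.8 and 45.7 CPM in hy5 BA and 57.5 and 77.2 CPM in hy5 Control, against 26.7 and 20.5 CPM in WT BA and 22.7 and 17.3 CPM in WT Control. The genotypes did not overlap in either medium. It rose 1.86-fold in hy5 BA over WT BA (log2 fold 0.89 ± 0.21, adjusted p = 0.0292). This call was lost in 5 of 16 alternative settings, with adjusted p between 5.17e-05 and 0.139 over all 16, so it is weakly held. Without hy5 BA 2 the fold was 0.83 (adjusted p = 0.139), without hy5 BA 1 it was 0.94 (0.0962), and without WT BA 2 it was 0.71 (0.102). In control medium the log2 fold was 1.75 ± 0.21.

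Summed, the near copies had 68.0 and 75.9 CPM in hy5 BA and 105 and 127 CPM in hy5 Control, against 27.3 and 21.1 CPM in WT BA and 23.8 and 17.5 CPM in WT Control. The sum, which is free of the division of shared reads, rose 2.97-fold with BA (log2 fold 1.57 ± 0.18, adjusted p = 0.000962). It was called in all 16 alternatives. In control medium it was 5.59-fold higher (2.48 ± 0.18).

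The share of the pair assigned to AT5G33355 also differed between the genotypes. By TPM, a level that allows for transcript length, AT5G33355 made up 46.5 and 47.8% of the pair in hy5 BA and 53.5 and 47.1% in hy5 Control, against 3.10 and 3.72% in WT BA and 6.64 and 1.92% in WT Control. As the reads were assigned, roots of hy5 thus had both copies at about the same level, and WT roots had nearly only AT3G59930. The share rests on the 24 of 554 aligned transcript bases that differ and on stretches that the other copy lacks.

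**Figure D1:**
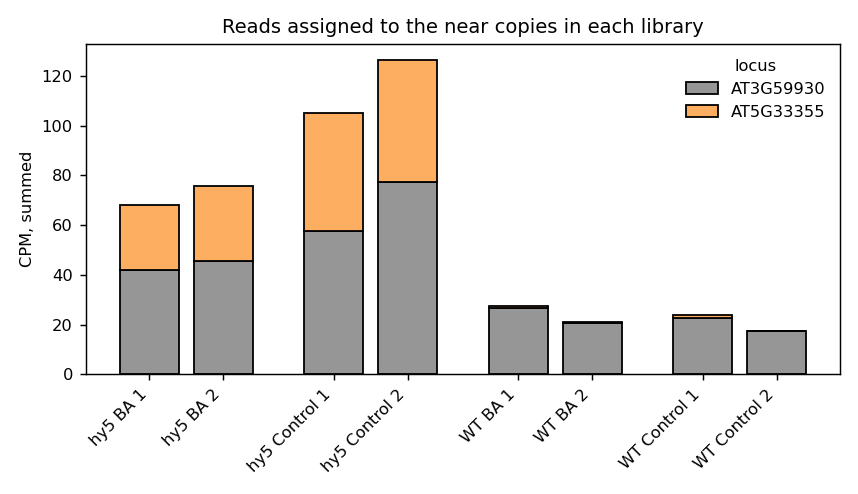
CPM assigned to AT5G33355 (orange) on top of that assigned to its near copy AT3G59930 (grey), 1 bar per library and linear from 0. The 4 hy5 bars stand at 68.0 to 127 CPM with a large orange part, the 4 WT bars at 17.5 to 27.3 CPM with almost none.

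AT1G34047 showed the same pattern as AT5G33355, with which it shares no word of 31 bases. It had 20.7 and 17.3 CPM in hy5 BA and 27.2 and 23.5 CPM in hy5 Control, against 0.987 and 0.352 CPM in WT BA and 1.02 and 0.412 CPM in WT Control. The WT libraries rest on 11 to 35 counts each, the hy5 libraries on 561 to 890. It rose 28.5-fold with BA (log2 fold 4.83 ± 0.32, adjusted p = 1.01e-05). The size of the fold depends on which WT BA library is kept, at 5.74 without WT BA 1 and 4.27 without WT BA 2, and it was called in both. In control medium the log2 fold was 5.11 ± 0.30. The overlapping antisense locus AT1G34049 had at most 0.0918 CPM in any library.

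AT2G36255 is the locus with no word shared with another annotated mRNA, and is by that search the plainest measurement. It had 25.3 and 27.5 CPM in hy5 BA and 38.8 and 36.8 CPM in hy5 Control, against 2.01 and 0.992 CPM in WT BA and 1.70 and 1.08 CPM in WT Control. In reads, this was 899 and 890 in hy5 BA and 1268 and 1184 in hy5 Control, against 61 and 31 in WT BA and 58 and 34 in WT Control. The lowest hy5 library was thus far above the highest WT library. It rose 17.6-fold with BA (log2 fold 4.14 ± 0.19, adjusted p = 2.14e-08). Its fold also moved with the WT BA library left out, between 3.72 and 4.72, and it stayed called. In control medium it was 4.75 ± 0.19.

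**Figure D2:**
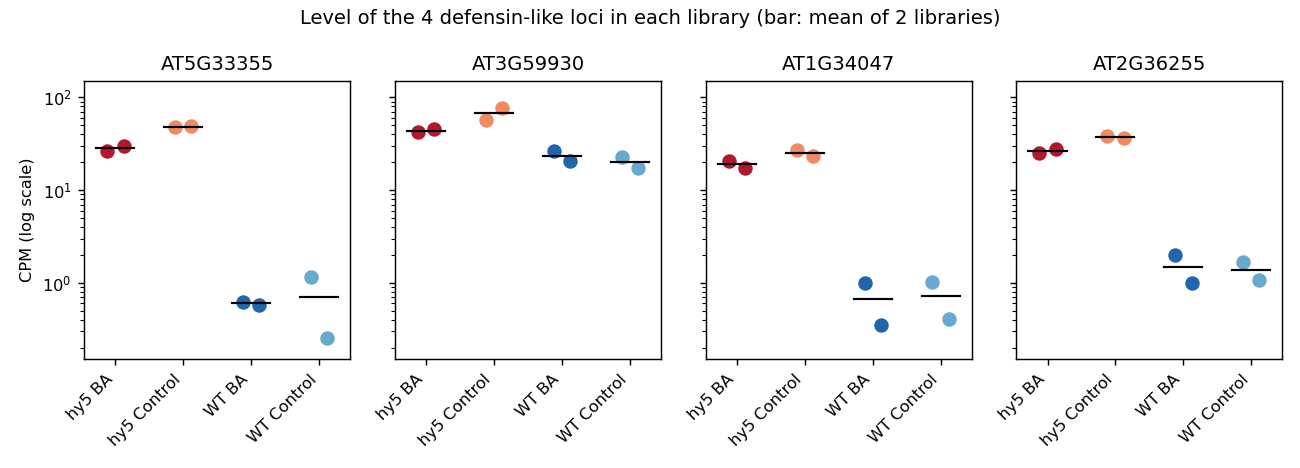
CPM of each locus in each library on a log axis, with 1 point per library and a bar at the mean of 2. AT5G33355, AT1G34047 and AT2G36255 lie at 17.3 to 49.4 CPM in hy5 and 0.254 to 2.01 CPM in WT, while AT3G59930 lies at 41.8 to 77.2 CPM in hy5 and 17.3 to 26.7 CPM in WT.

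All 4 loci were thus called higher in hy5 BA than in WT BA, where 11.0% of all loci tested were called higher. Rises of at least 16-fold were called for 8 loci (0.0353% of those tested), and AT5G33355, AT1G34047 and AT2G36255 are 3 of them. Without hy5 Control 1 and hy5 BA 2, the log2 folds with BA were 5.44 for AT5G33355, 4.95 for AT1G34047, 4.08 for AT2G36255, 0.82 for AT3G59930 and 1.49 for the summed near copies, all called. In control medium, which chose the loci, 13.7% of loci were called higher and 0.0573% by at least 16-fold.

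Ranked by fold among 2188 loci called higher with BA under the same limits on level and overlap, AT5G33355 had rank 1, AT1G34047 rank 2 and AT2G36255 rank 3. AT3G59930 was at rank 290. The first places are not fixed: without WT BA 1 the log2 fold was 5.74 for AT1G34047 and 5.60 for AT5G33355, whose level also depends on how shared reads were divided. The next locus was AT1G28660, annotated as a GDSL-like lipase, at a log2 fold of 3.70 ± 0.19. The limit on level is an average over all 8 libraries, those in control medium included. By fold alone, AT5G33355 was at rank 7, AT1G34047 at 9, AT2G36255 at 15 and AT3G59930 at 766 of all 22682 loci tested. In control medium, again under the limits, AT3G59930 was at rank 74 of 2823. The loci just outside the chosen group there were AT4G33720, of the CAP family of secreted proteins, at 3.85 ± 0.44, UGT76E1, a glucosyl transferase, at 3.33 ± 0.17, and the late embryogenesis abundant locus AT3G15670 at 3.15 ± 0.27.

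**Figure D3:**
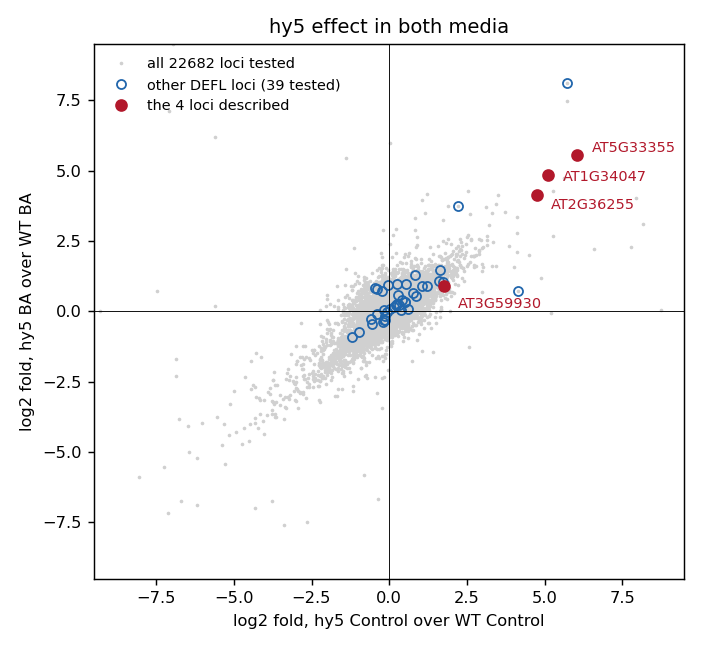
Log2 fold of hy5 over WT for every locus tested, in control medium (x axis, the medium that chose the loci) and with BA (y axis). Each grey point is 1 of 22682 loci, open circles are the 39 other DEFL loci tested, and the filled points are the 4 loci, of which AT3G59930 lies apart from the other 3.

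BA itself went with lower levels of all 4 loci in hy5 roots and with no clear difference in WT roots. Both responses share libraries with the choice of the loci and are given without a test. In hy5, the log2 fold of hy5 BA over hy5 Control was -0.78 ± 0.16 for AT5G33355, -0.62 ± 0.20 for AT3G59930, -0.41 ± 0.19 for AT1G34047 and -0.52 ± 0.13 for AT2G36255. No library of hy5 BA reached one of hy5 Control for any of the 4. With 2 libraries in each group, a lack of overlap says little by itself, and its share over all loci was not counted. Over all loci, 8.01% were called lower and 3.11% higher in hy5 BA than in hy5 Control. In WT, the log2 fold of WT BA over WT Control was -0.28 ± 0.57 for AT5G33355, 0.24 ± 0.22 for AT3G59930, -0.13 ± 0.56 for AT1G34047 and 0.09 ± 0.30 for AT2G36255. Over all loci, 3.88% were called higher and 4.33% lower in WT BA than in WT Control. The WT groups overlapped for each of the 4 loci.

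The response in hy5 less that in WT was -0.86 ± 0.30 on the log2 scale for AT3G59930 and -0.91 ± 0.26 for the summed near copies. It was -0.51 ± 0.60 for AT5G33355, -0.28 ± 0.59 for AT1G34047 and -0.61 ± 0.33 for AT2G36255. For these 3 loci the WT libraries held 7.69 to 61 counts each. Together the 4 loci summed to 114 and 121 CPM in hy5 BA and 171 and 187 CPM in hy5 Control, against 30.3 and 22.4 CPM in WT BA and 26.6 and 19.0 CPM in WT Control.

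Per length, the order of the loci differed between the genotypes. In hy5 BA the mean TPM was 105 ± 5.57 for AT2G36255, 92.1 ± 5.35 for AT3G59930, 82.4 ± 7.83 for AT5G33355 and 56.4 ± 7.42 for AT1G34047 (SD, n = 2). In hy5 Control it was 152 ± 6.98 for AT2G36255, 143 ± 2.63 for AT5G33355, 143 ± 28.5 for AT3G59930 and 75.9 ± 8.46 for AT1G34047. AT1G34047 was thus the lowest in every hy5 library, and AT3G59930 spanned the values of AT5G33355 and AT2G36255 in hy5 Control. In WT BA, AT3G59930 was first at 50.7 ± 11.7 TPM, followed by AT2G36255 at 6.14 ± 3.19, AT1G34047 at 2.05 ± 1.45 and AT5G33355 at 1.76 ± 0.18 TPM. In WT Control the levels were 44.0 ± 7.40 TPM for AT3G59930, 5.77 ± 1.69 for AT2G36255, 2.21 ± 1.29 for AT1G34047 and 2.13 ± 1.94 for AT5G33355. AT1G34047 and AT5G33355 did not differ beyond their spread in either WT group.

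Sequence before the genes was compared because HY5 binds ACGT and the 4 loci were all higher in hy5. For AT5G33355, AT1G34047 and AT2G36255 the rise was the reason for their choice, and AT3G59930 rose much less. The 250 bases before each annotated start are shown 5′ to 3′ on the strand of the gene, with every ACGT and TATAAA in capitals. They are chr5:12599000-12599249 (+), chr3:22140321-22140570 (-), chr1:12390916-12391165 (-) and chr2:15201825-15202074 (-), in the order of the lines.
AT5G33355: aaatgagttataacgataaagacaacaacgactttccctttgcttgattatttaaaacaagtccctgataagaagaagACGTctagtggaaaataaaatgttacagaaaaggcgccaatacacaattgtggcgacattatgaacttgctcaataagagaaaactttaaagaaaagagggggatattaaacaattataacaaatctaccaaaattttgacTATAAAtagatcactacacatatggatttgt
AT3G59930: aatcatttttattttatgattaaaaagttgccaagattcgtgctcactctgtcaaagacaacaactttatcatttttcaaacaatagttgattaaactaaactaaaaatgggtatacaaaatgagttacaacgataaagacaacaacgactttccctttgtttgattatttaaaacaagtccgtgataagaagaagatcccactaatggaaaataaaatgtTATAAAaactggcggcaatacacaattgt
AT1G34047: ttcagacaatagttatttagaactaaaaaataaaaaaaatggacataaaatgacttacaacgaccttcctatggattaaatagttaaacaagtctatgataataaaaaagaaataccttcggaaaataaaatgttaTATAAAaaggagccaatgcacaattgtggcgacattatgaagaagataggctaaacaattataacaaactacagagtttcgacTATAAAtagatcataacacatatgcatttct
AT2G36255: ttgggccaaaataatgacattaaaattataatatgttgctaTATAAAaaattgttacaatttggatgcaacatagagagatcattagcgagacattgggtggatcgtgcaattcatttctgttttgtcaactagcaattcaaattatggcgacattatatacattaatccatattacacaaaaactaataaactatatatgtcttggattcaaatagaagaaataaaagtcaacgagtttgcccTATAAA

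The letters ACGT, searched on both strands, occurred in 1 of the 4 windows, that of AT5G33355 with its first base 172 bases upstream, and in 44.1% of 27443 such windows over the genome. The longer CACGTG, known as the G-box, contains ACGT and was in none of the 4, against 6.49% of all windows. TATAAA, the letters of a TATA box, was in all 4, against 47.3% of all windows. These matches are a description of letters and say nothing of binding.

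The annotated starts of the near copies are not at matching places, since the AT3G59930 transcript begins 193 bases before its start codon and that of AT5G33355 only 69. Counted from the start codon and on the strand of the gene, the nearest TATAAA began 100 bases upstream in AT5G33355, 103 in AT3G59930, 107 in AT1G34047 and 102 in AT2G36255. AT1G34047 also had a match on the opposite strand, 60 bases upstream. Over the 300 bases before the start codon, AT5G33355 and AT3G59930 were identical at 277 of 293 aligned bases, or 90.2% of an alignment of 307 positions with its gaps. AT5G33355 and AT1G34047 were identical at 219 of 260, or 64.4% of 340 positions. In this stretch AT5G33355 has an ACGT, 241 bases before its start codon, and AT3G59930 has none.

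No tested neighbour of the 4 loci had a rise of their size. Of the 5 annotated loci on each side of each gene, 40 in all, 16 were tested. With BA, 1 was called higher and 3 lower, where 11.0% and 12.4% of all loci were. In control medium 2 were called higher and 3 lower, where 13.7% and 11.4% of all loci were. None of them was raised by more than 0.77 on the log2 scale, the value of the ankyrin repeat locus AT1G34050 near AT1G34047 in control medium (adjusted p = 0.00571). With BA the single call upward was AT2G36220, at 0.25 ± 0.09 (adjusted p = 0.0495). Near AT2G36255, both ABI5, a bZIP factor of abscisic acid signalling, and the hydrolase locus AT2G36290 fell with BA, by 1.58 and 1.23 on the log2 scale (adjusted p = 3.93e-05 and 2.48e-09). AT3G59910, an ankyrin repeat locus near AT3G59930, fell by 0.31 (adjusted p = 0.00467). The 2 tested neighbours of AT5G33355, CUE1 and AT5G33330, were not called (adjusted p = 0.751 and 0.286).

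Among other DEFL loci, most could not be assessed in roots. The annotation names 311 besides the 4, of which 279 were in the tables, 73 had 0 counts in all libraries and 240 in all were removed by the filter. Of the 39 tested, 14 were called higher (35.9%, against 11.0% of all loci) and 2 lower (5.13%, against 12.4%) in hy5 BA than in WT BA, with a median log2 fold of 0.33, against 0.01 over all loci. In control medium 12 were called higher (30.8%, against 13.7% of all loci) and 2 lower (5.13%, against 11.4%). The median there was 0.26, against -0.001 over all loci. Loci can pass the filter through the hy5 libraries alone, so these shares say nothing of the family at large. None of the 14 apart from AT3G05730 and AT3G05727 rose by more than 1.46 on the log2 scale, the value of AT3G63360 (± 0.30, adjusted p = 0.002).

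AT3G05730 had the largest fitted fold of the other DEFL loci. It had 33 and 38 counts in hy5 BA and 4 and 9 in hy5 Control, and 0 in all 4 WT libraries. With a floor of 3 counts over the group, it was at least 21.5-fold higher in hy5 BA than in WT BA, and at least 4.39-fold higher in hy5 than in WT in control medium. Its level was far lower than those of the 4 loci, at 0.930 and 1.17 CPM in hy5 BA. AT3G05727, also a DEFL locus, had 62 and 16 counts in hy5 BA and 1 and 9 in hy5 Control, against 4 and 1 in WT BA and 1 and 1 in WT Control, and its rise with BA (adjusted p = 0.0133) rested mainly on hy5 BA 1. Both passed the filter through hy5 libraries.

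The other DEFL loci that were called differed by less than these. AT4G22212 rose by 0.91 ± 0.08 on the log2 scale with BA, at 449 and 433 CPM in hy5 BA against 246 and 222 CPM in WT BA (adjusted p = 4.88e-07). AT4G22214, which follows it on chromosome 4, rose by 1.08 ± 0.13, at 144 and 123 CPM in hy5 BA against 56.0 and 70.1 CPM in WT BA (adjusted p = 0.000163). AT4G22230 and AT4G22235, from the same stretch, rose by 0.66 ± 0.10 and 0.33 ± 0.09. The protease inhibitor homologue TI1 rose by 1.03 ± 0.21. LCR68 fell by 0.39 ± 0.07, at 309 and 309 CPM in hy5 BA against 386 and 423 CPM in WT BA (adjusted p = 0.00094), and AT2G43530, of the same knottin superfamily as scorpion toxins, fell by 0.74 ± 0.18 (adjusted p = 0.00714).

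**Figure D4:**
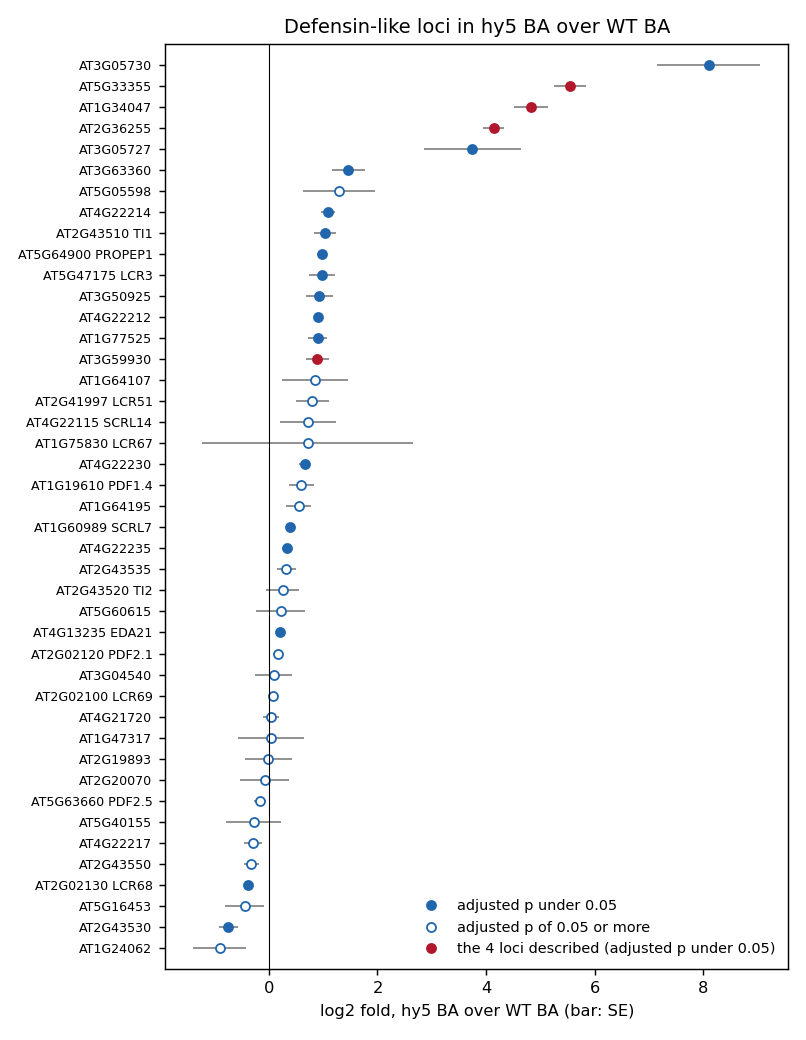
Log2 fold of hy5 BA over WT BA with its SE for the 43 DEFL loci tested, in order of size, with filled points at an adjusted p under 0.05. AT5G33355, AT1G34047 and AT2G36255 stand at 4.14 to 5.54 and AT3G59930 at 0.89. The fitted value of AT3G05730, at 0 in WT, depends on the fit and its bound is 21.5-fold.

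By TPM among 283 DEFL loci, AT2G36255 ranked 11, AT3G59930 13, AT5G33355 14 and AT1G34047 18 in hy5 BA. In hy5 Control AT2G36255 ranked 7, AT5G33355 8, AT3G59930 9 and AT1G34047 16. In WT BA the ranks were 29 for AT2G36255, 13 for AT3G59930, 56 for AT5G33355 and 49 for AT1G34047. In WT Control they were 28 for AT2G36255, 15 for AT3G59930, 48 for AT5G33355 and 47 for AT1G34047. AT3G59930 thus ranked 9 to 15 in every group, while the other 3 ranked 7 to 18 in the hy5 groups and 28 to 56 in the WT groups.

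Small proteins were also counted as a class. Of 1037 other loci tested with at most 100 residues, 151 (14.6%, against 11.0% of all loci) were called higher and 71 (6.85%, against 12.4%) lower with BA. Other DEFL loci of this size, AT4G22212 among them, are counted here too, so this count overlaps with that of the DEFL loci. The median log2 fold was 0.10, against 0.01 over all loci. The rises with the smallest p included AT1G36622, an uncharacterized locus, at 1.97 ± 0.17, PROPEP4, the precursor of an elicitor peptide, at 1.18 ± 0.08, and CLE2, a signalling peptide, at 1.04 ± 0.09. The falls with the smallest p included SP1L5, related to the microtubule protein SPIRAL1, which fell by 2.48 ± 0.20.

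The jasmonate and ethylene pathway, known for inducing classical plant defensins, was mixed. Of 12 genes listed, 9 were tested, and with BA 4 rose and 3 fell in hy5, where 11.0% of all loci were called higher and 12.4% lower. The 3 removed by the filter on low counts were the defensins PDF1.2a, PDF1.2b and PDF1.2c, so the pathway's own defensins could not be assessed. JAZ10, a repressor of the jasmonate response that jasmonate induces, rose by 1.34 ± 0.07, the jasmonate synthesis enzymes AOS and LOX3 by 1.10 ± 0.09 and 1.00 ± 0.07, and the transcription factor MYC2 by 0.48 ± 0.08. PR4, a chitin-binding defence protein, fell by 1.10 ± 0.11, ORA59, the factor that joins both hormones at defensin genes, by 1.18 ± 0.25, and VSP2 by 1.84 ± 0.34. In control medium 5 were called higher and 3 lower, where 13.7% and 11.4% of all loci were.

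The loci most like each of the 3 over the 8 libraries were sought by Pearson's r of log2 CPM, as a description of libraries that share genotypes and depth. For AT5G33355 they were the ankyrin repeat locus AT1G14480 (r = 0.998), the triterpene synthase PEN1 (0.996) and the lipid-binding locus AT1G70810 (0.995). For AT1G34047 the first was AT2G36255 itself (0.997), before AT5G16170 and AT5G01760 (both 0.994). For AT2G36255 they were AT5G16170 (0.997), AT1G34047 (0.997) and the berberine bridge enzyme-like AT1G30720 (0.996). AT5G33355 correlated with AT1G34047 at 0.989 and with AT2G36255 at 0.990, and AT3G59930 with AT5G33355 at 0.953. The 8 libraries include those that chose the 3 loci, so a high r between these loci follows from the choice. It was not particular to them. Counting AT5G33355 itself, 32 loci had a higher r with it than AT1G34047 had, 21 than AT2G36255 and 418 than AT3G59930. The named loci that are not among the 4 had smaller folds than these 3, such as PEN1 at a log2 fold of 1.11 with BA against 5.54 for AT5G33355.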

How the data were processed

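RNA-seq of Arabidopsis roots was analysed from 8 transcript tables, 1 per library. The estimated counts and TPM values are those the authors obtained with Salmon on the build TAIR10, per the submitters' processing notes and the file headers. The sources used here do not give the Salmon version, its options or the strand setting. Estimated counts of 48332 transcripts were added up to 27628 loci by the part of the name before the dot, then rounded. Loci were filtered with filterByExpr (minimum count 10; 22682 kept, 4946 removed), scaled by TMM and fitted with edgeR 4.0.16 (R 4.3.3) in 1 robust quasi-likelihood model with 4 group means over all 8 libraries. Tests were two-sided, adjusted by Benjamini-Hochberg over all loci tested, and called at 0.05. The SE of a log2 fold was taken as the fold divided by the square root of F. CPM values use TMM library sizes, and TPM was used for levels between loci. The depth sets the precision: at these totals a count of 10 is about 0.3 CPM, and the low WT levels rest on few counts.

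Sequences, names and positions came from RefSeq's TAIR10.1, which held 27420 of the loci. Transcript lengths in the tables equalled its lengths for 99.6% of 48123 transcripts. Shared words have 31 bases, Salmon's usual length, and were sought in annotated mRNAs only. No table of proteins was used, so small proteins were those of at most 100 residues by the annotated coding length. Proteins, coding sequences and transcripts were aligned globally with Biopython 1.88. Paired libraries differed beyond sampling noise in each group (chi-square per locus 3.89 to 7.93). On simulated data with 200 changed loci the fit recovered 76.1, 86.6 and 98.5% of loci changed 1.5-, 2- and 4-fold for the hy5 effect with BA. It also called 18 loci that had not been changed, out of 22483 loci in that fit.

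The loci and the gene lists were chosen with earlier results of these data known. DEFL loci were found by their annotation, which includes PROPEP1 by a remark on defensins. The loci named besides the 4 are called list members with the smallest p with BA (up to 4 each way), called or overlapping neighbours, the largest rises and the 3 loci with the highest correlation. TI1, AT3G05727, AT3G63360, AT4G22230 and AT4G22235 were named after their values were seen. Alternatives were RLE scaling or library size only, no filter, DESeq2 1.42.0, effective lengths as offsets, the BA libraries alone, a replicate block, each library left out and, chosen after seeing the data, both libraries with many near-whole counts left out and the DEFL list without PROPEP1.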

Additional observations from a re-analysis of the deposited data

How the results depend on the processing

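With BA, AT5G33355, AT1G34047, AT2G36255 and the summed near copies were called higher in hy5 under all 16 alternatives, at log2 folds of 5.44 to 5.63, 4.27 to 5.74, 3.72 to 4.72 and 1.40 to 1.76. Leaving out each library in turn gave 5.44 to 5.63 for AT5G33355, 4.27 to 5.74 for AT1G34047, 3.72 to 4.72 for AT2G36255, 1.40 to 1.76 for the sum and 0.71 to 1.09 for AT3G59930. AT3G59930 was not called without the filter (0.89, adjusted p = 0.0512) or with the replicate block (0.89, adjusted p = 0.0651), nor without hy5 BA 1, hy5 BA 2 or WT BA 2; the cause was not tested. The replicate numbers of the groups share only a number, with correlations of deviations between groups of -0.07 to 0.02, and with the block 4968 loci were called in place of 5321. Leaving out 1 library gave 3366 loci (without hy5 BA 2) to 5658 (without WT Control 1), where an arm of 1 library is assumed to vary like the others. Without hy5 Control 1 and hy5 BA 2, 2998 loci were called, from fewer libraries. DESeq2 called 4012. With library size only, 2760 of 5349 calls were higher, against 2505 of 5321. The other DEFL loci called were 17 without the filter and 15 without PROPEP1, against 16. Folds in control medium and in both BA responses moved by less than their spread with RLE scaling and library size only, as did ratios from TPM. Depth limits the WT levels of AT5G33355 and AT1G34047, at 7.69 to 39.7 counts per library.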
